A study of Mus musculus with 6 samples.

Results

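The corticotropin-releasing hormone (CRH) system is described here by 5 genes, Crh, Crhr1, Crhr2, Crhbp and Ucn, out of 22095 genes in a table of read counts. They were taken by gene symbol, and all 5 were found by their Ensembl identifier. Ucn2 and Ucn3, which encode the other ligands of the family, are given beside them, which makes 7 genes. Polyadenylated RNA was sequenced from olfactory bulbs of 3 ICR mice, an outbred stock. Each had its left naris closed by a silica gel plug at postnatal day 30, and tissue was collected after 60 days. Each mouse, numbered 1037, 1038 or 1039, gave 2 libraries, left for the plugged and right for the open side. The mice carried no other treatment in the labels, there was no unplugged mouse, and a difference between the sides that exists without a plug cannot be told apart from one that follows it.

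CRH is a peptide that is best known for its release in the hypothalamus, where it drives the stress response through the pituitary. It also acts as a local signal within the brain. It binds the receptor CRHR1, which couples to the stimulatory G protein and raises cyclic AMP. CRHR2 is preferred by the products of Ucn2 and Ucn3, and CRHBP is a secreted protein that binds CRH and urocortin and limits what reaches the receptors. In the olfactory bulb CRH is known from interneurons of the external plexiform layer, and CRHR1 from granule cells, the most abundant interneurons of the bulb.

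The libraries held 14571453 to 15590938 counts, and levels are given as CPM, the count divided by the library's total and multiplied by 1000000. A count of 0 allows up to 3 counts, which is 0.192 to 0.206 CPM. This limit and the 95% Wilson intervals in the plot of levels cover counting error only. The library labelled left 1038 stood apart. Genes of the cerebellum summed to 6390 CPM in it, against 307 to 315 CPM in the other 2 left and 217 to 230 CPM in the 3 right libraries, and Dlx1 and Cdhr1, markers of bulb interneurons and of mitral and tufted cells, stood at 0.618 and 0.755 CPM, against 304 CPM or more in the others. It is shown apart below, and the sides were compared in the other 5 libraries, 2 left and 3 right, with the values of all 6 beside them. The numbers of libraries limit every test, and in whole bulbs fewer cells of a type and less RNA per cell cannot be told apart.

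Crh, Crhbp and Crhr1 were lower on the plugged side, and Crh fell the most. Crh fell 4.01-fold, Crhbp, the binding protein, 2.14-fold and Crhr1, the receptor, 1.37-fold. Crhr2 did not pass the test, and no read of Ucn was counted in any library. Of the 5 genes 4 had enough counts to be tested and 3 of them were called lower at an adjusted p under 0.05. Of all 14412 genes tested, 6.46% were called lower, 3.16% higher and 9.62% in either direction.

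**Figure D1:**
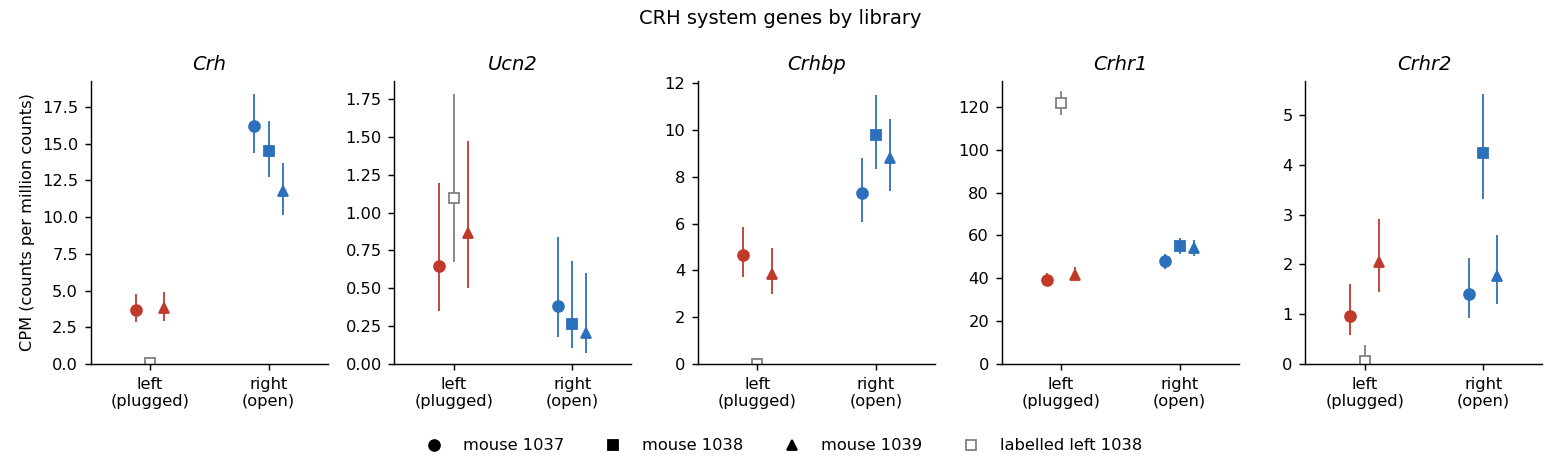
Level of 5 CRH family genes in each library, in CPM on linear axes that start at 0 and differ between panels, with 95% Wilson intervals for counting error. Symbols mark the mouse, filled red is left, filled blue is right and the open grey square is the library labelled left 1038. Crh is 3.69 and 3.78 CPM in the 2 left bulb libraries and 11.8 to 16.2 CPM in the 3 right libraries, while Crhr1 is highest, at 122 CPM, in the library set apart.

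Crh, the ligand (ENSMUSG00000049796, chromosome 3, 19693401 to 19695396 on GRCm38, minus strand), had 57 counts in left 1037 and 57 in left 1039. It had 253, 219 and 173 counts in right 1037, 1038 and 1039. As levels these are 3.69 and 3.78 CPM on the left and 16.2, 14.5 and 11.8 CPM on the right. The groups did not overlap. The near equal levels of the 2 left libraries understate the counting error, whose intervals were 2.85 to 4.78 CPM in left 1037 and 2.92 to 4.90 CPM in left 1039. Means were 3.74 ± 0.0641 CPM for left (SD, n = 2) and 14.2 ± 2.23 CPM for right (SD, n = 3). On the log2 scale Crh fell by 2.01 (SE 0.19, adjusted p = 0.000606, edgeR's quasi-likelihood test). Within a mouse, the left level was 22.8% of the right level in mouse 1037 and 32.0% in mouse 1039. The call held under each of 13 other settings in the 5 libraries, with log2 values from -2.12 to -1.88 and adjusted p up to 0.00437. With all 6 libraries the value was -2.56 (SE 0.96, adjusted p = 0.554), and the library labelled left 1038 held 1 count of Crh.

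A lower level in every left library than in every right library was seen for 13.2% of the genes tested, the reverse for 33.2%, and either for 46.4%, on this scale of library totals. Crh, Crhbp and Crhr1 were among the former, and Crhr2 was in neither set.

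Crhbp, the binding protein (ENSMUSG00000021680, chromosome 13, 95431371 to 95444924, minus strand), had 72 and 58 counts in left 1037 and 1039. It had 114, 148 and 129 counts in right 1037, 1038 and 1039. The levels were 4.66 and 3.85 CPM on the left and 7.31, 9.80 and 8.81 CPM on the right, with no overlap. Means were 4.26 ± 0.576 CPM for left (SD, n = 2) and 8.64 ± 1.25 CPM for right (SD, n = 3). Crhbp fell by 1.10 on the log2 scale (SE 0.20, adjusted p = 0.00848). The left level was 63.8% of the right in mouse 1037 and 43.7% in mouse 1039. Of 13 other settings in the 5 libraries 12 called it, with log2 values from -1.24 to -0.96 and adjusted p up to 0.0415. DESeq2 with the mouse as a block gave -1.0 and an unadjusted p of 0.0163, with no adjusted p, so Crhbp was not called there. In that fit the similar unadjusted p of Crhr1, 0.0160, went with an adjusted p of 0.226. With all 6 libraries the value was -1.67 (SE 1.1, adjusted p = 0.590).

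Crhr1, the main receptor of CRH (ENSMUSG00000018634, chromosome 11, 104132855 to 104175523, plus strand), had the most reads of the family. Its counts were 606 and 628 in left 1037 and 1039, and 746, 829 and 791 in right 1037, 1038 and 1039. The levels were 39.3 and 41.7 CPM on the left and 47.8, 54.9 and 54.0 CPM on the right. The groups did not overlap, although the gap between left 1039 and right 1037 was small beside that of Crh. Means were 40.5 ± 1.71 CPM for left (SD, n = 2) and 52.3 ± 3.84 CPM for right (SD, n = 3). Crhr1 fell by 0.45 on the log2 scale (SE 0.09, adjusted p = 0.0111). The left level was 82.1% of the right in mouse 1037 and 77.2% in mouse 1039.

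The call of Crhr1 held under 12 of 13 other settings in the 5 libraries, with log2 values from -0.50 to -0.37. It ended with DESeq2 and the mouse as a block (-0.41, adjusted p = 0.226), where the adjusted p of the 13 settings ran from 0.00148 to 0.226. That fit called 3% of all genes, 2.47% lower and 0.527% higher. Using edgeR and the same block, where all 3 members were called, the shares were 7.36% lower and 3.41% higher. With all 6 libraries the sign of Crhr1 turned, to 0.35 (SE 0.49, adjusted p = 0.790).

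Crhr2, the receptor preferred by the products of Ucn2 and Ucn3 (ENSMUSG00000003476, chromosome 6, 55090049 to 55133016, minus strand), was low. It had 15 and 31 counts in left 1037 and 1039, and 22, 64 and 26 counts in right 1037, 1038 and 1039. As levels these were 0.972 and 2.06 CPM on the left and 1.41, 4.24 and 1.77 CPM on the right. The groups overlapped, and right 1038 was the highest library. The log2 fold change was -0.79 (SE 0.52, adjusted p = 0.388), and without right 1038 it was -0.15 (adjusted p = 0.890). It was -1.41 without left 1039 and -0.34 without left 1037, so that the leave-outs ran from -1.41 to -0.15. With the mouse as a block it was -0.19 (adjusted p = 0.813). A difference of the size seen in Crhr1 was not detectable in Crhr2 at this depth and spread.

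**Figure D2:**
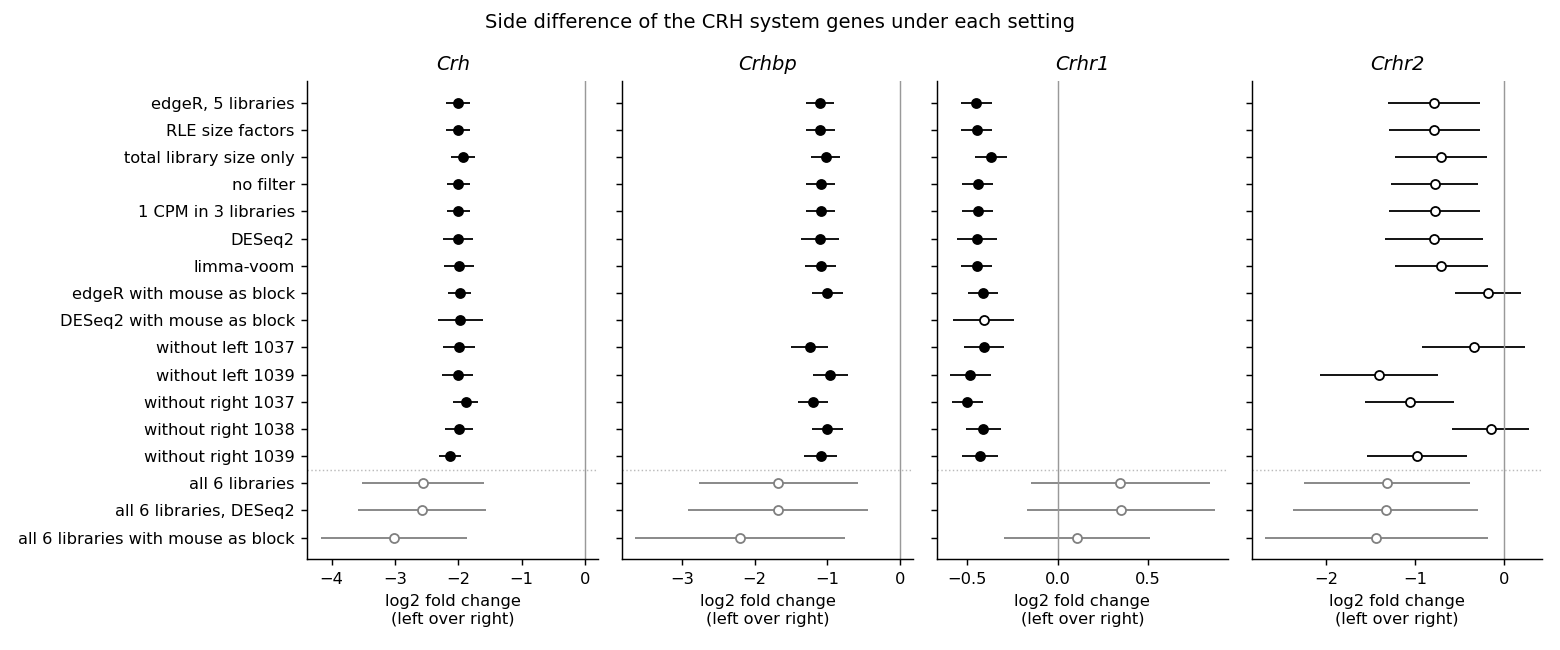
Log2 fold change of left over right, with its SE as the bar, for the 4 tested members under each setting; filled points passed an adjusted p of 0.05, and the x axes differ between panels. Rows above the dotted line use the 5 bulb libraries or fewer, and grey rows below it use all 6. Crh stays between -2.12 and -1.88 above the line, Crhr1 moves to 0.35 below it, and DESeq2 with the mouse as a block has no point for Crhbp and Crhr2 because it gave no adjusted p.

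Ucn, which encodes urocortin (ENSMUSG00000038676, chromosome 5, 31138063 to 31138829, minus strand), had a count of 0 in each of the 6 libraries. The limit is 0.206 CPM or less per library, so a lower level than that was not detectable. Ucn3 had 1 count in left 1039, 2 counts in right 1039 and 0 in the others. Ucn2 had 10 and 13 counts in left 1037 and 1039, and 6, 4 and 3 counts in right 1037, 1038 and 1039. Its levels were 0.648 and 0.863 CPM on the left and 0.385, 0.265 and 0.205 CPM on the right. Ucn2 was thus higher in each left library than in each right library. The same order held for 33.2% of the genes tested, on the scale of library totals. Few reads lay behind the levels of Ucn2, and Ucn2 did not pass the filter on low counts. Fitted without a filter, its log2 fold change was 1.3 (SE 0.62, adjusted p = 0.258).

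Sequences near the start sites of 2 genes are shown because they hold a motif of the cyclic AMP pathway, the pathway of CRHR1. The cyclic AMP response element, TGACGTCA, binds CREB. Both strands of 300 bases around each RefSeq start site (build GRCm38.p6) were searched for it, for its core TGACG, which the element contains on both strands, for the AP-1 site TGANTCA and for the Nr4a site AAAGGTCA. Of 7 genes 5 were in the RefSeq promoter table, and Crh and Ucn2 were not. The full element was found in Ucn alone among the 5, starting 44 bases before the RefSeq start site, and in 1.79% of 32851 windows. GENCODE starts Ucn further downstream, at 31138829 against 31138895 in RefSeq, so the element lies before both. The core was also found in Crhbp, starting 64 bases before the RefSeq start site, and in 20.8% of windows. The sources also disagree on where Crhbp starts, at 95444831 in RefSeq and at 95444924 in GENCODE. The core thus lies before the RefSeq start but inside the gene as GENCODE has it. AP-1 sites occurred in 7.81% and Nr4a sites in 1.51% of windows, and in none of the 5. In capitals are the element in Ucn (chr5:31138896-31139145, minus strand) and the core, read on the opposite strand, in a stretch of 30 bases of Crhbp (chr13:95444878-95444907, minus strand).
Ucn: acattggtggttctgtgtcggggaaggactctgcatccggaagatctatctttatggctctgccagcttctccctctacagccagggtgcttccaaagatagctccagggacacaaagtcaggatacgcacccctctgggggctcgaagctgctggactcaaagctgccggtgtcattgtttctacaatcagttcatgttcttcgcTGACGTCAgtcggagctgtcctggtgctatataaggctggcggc
Crhbp: gagctggaccctCGTCAttgccacgcattt
Of the 5 genes searched, the one with the full element, Ucn, had no read counted in the bulb. The windows of Crh and Ucn2 were not searched, and a match describes letters in these windows only.

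Levels of different genes were compared per kilobase of exon (CPM per kb). On the open side Crhr1 was highest, at 21.2 ± 1.56 CPM per kb (SD, n = 3), followed by Crh at 10.7 ± 1.69 and Crhbp at 4.80 ± 0.697 CPM per kb (SD, n = 3). The ranges of these 3 genes did not overlap. Crhr2 followed at 0.484 ± 0.301 and Ucn2 at 0.247 ± 0.0794 CPM per kb (SD, n = 3), and their ranges overlapped. On the plugged side Crhr1 was again highest, at 16.5 ± 0.697 CPM per kb (SD, n = 2). Crh, at 2.83 ± 0.0486 CPM per kb (SD, n = 2), lay close to Crhbp, at 2.37 ± 0.320 CPM per kb (SD, n = 2). The ranges over the libraries did not meet, but they leave out counting error. Ucn2 stood at 0.654 ± 0.132 and Crhr2 at 0.296 ± 0.150 CPM per kb (SD, n = 2). With the longest transcript as the length, Crhr2 was 0.518 CPM per kb on the left, where its range met that of Ucn2, and 0.847 CPM per kb on the right.

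The amount of ligand and of binding protein against receptor was compared within each library, which does not depend on library scaling. For each 100 counts of Crhr1 there were 9.41 and 9.08 counts of Crh in left 1037 and 1039. There were 33.9, 26.4 and 21.9 in right 1037, 1038 and 1039. The groups did not overlap. For Crhbp the values were 11.9 and 9.24 per 100 counts of Crhr1 on the left and 15.3, 17.9 and 16.3 on the right, again with no overlap. Crh counts exceeded Crhbp counts in the right libraries, with ratios of 2.22, 1.48 and 1.34, and did not in left 1037 and 1039, with 0.792 and 0.983. Counts do not allow for gene length. Per kilobase of exon Crh stayed above Crhbp in left 1037 (2.80 against 2.59 CPM per kb) and in left 1039 (2.87 against 2.14 CPM per kb). The count ratios were not tested, since an exact permutation of 2 against 3 libraries cannot give a two-sided p below 0.2.

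**Figure D3:**
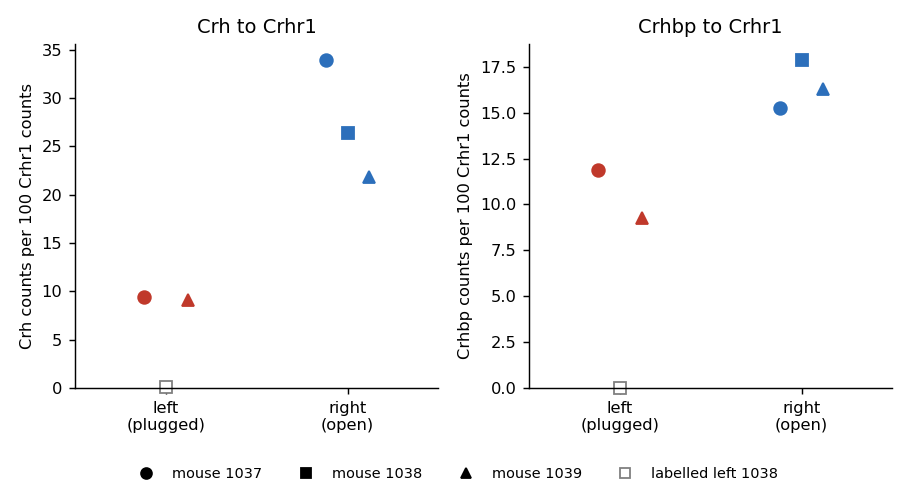
Counts of Crh (left panel) and of Crhbp (right panel) per 100 counts of Crhr1 in the same library, on linear axes from 0; symbols mark the mouse and the open grey square is the library labelled left 1038. Crh is 9.41 and 9.08 per 100 in the left bulb libraries and 21.9 to 33.9 in the right libraries.

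The library labelled left 1038 had its own pattern of the family. Crhr1 stood at 1774 counts, or 122 CPM, which is 2.22-fold above the highest and 3.10-fold above the lowest of the other 5 libraries. Crh and Crhr2 had 1 count each, and Crhbp had 0, which is at least 18.7-fold lower than the lowest other library (3 counts taken as the limit). Ucn2 had 16 counts, or 1.10 CPM, and Ucn and Ucn3 had 0. The receptor was thus present there at a high level with almost no ligand and no binding protein counted. CRHR1 is known from the cerebellum.

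The genes whose profile over the 5 bulb libraries came nearest to that of each member were ranked among 11595 genes with a mean of at least 5 CPM. The measure was the root mean square difference of log2 CPM, centred on each gene. Nearest to Crh were Th, tyrosine hydroxylase, which dopamine neurons need (0.165), Syt10, a synaptotagmin (0.175), Adcyap1, which encodes the neuropeptide PACAP (0.194), and Scg2, a secretogranin (0.197). Th stood at 49.0 and 39.0 CPM in left 1037 and 1039 and at 145, 164 and 132 CPM in right 1037, 1038 and 1039, and fell by 1.82 on the log2 scale (SE 0.12, adjusted p = 8.11e-05). Syt10, Adcyap1 and Scg2 fell by 1.61, 2.34 and 1.51 (adjusted p from 4.79e-05 to 0.000224). Since all 4 genes were chosen as nearest to Crh over these same libraries, their falls follow from that choice. In the library labelled left 1038 all 4 were below their lowest bulb library. Th stood at 8.51, Syt10 at 8.99, Adcyap1 at 3.16 and Scg2 at 97.7 CPM in it. Their lowest bulb levels were 39.0, 19.2, 5.64 and 292 CPM. Crh had 1 count, or 0.0686 CPM, in that library, against 3.69 CPM or more in the bulb libraries.

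Nearest to Crhbp were Stac (0.0522), Pappa, a secreted protease (0.110), Hgf, hepatocyte growth factor (0.111), and Dgat2l6 (0.128). They fell by 1.05, 1.01, 0.95 and 1.10 (adjusted p from 0.00347 to 0.0146). The calls of Stac and Hgf ended without left 1039 (adjusted p = 0.0554 and 0.0768). Nearest to Crhr1 were Odc1, ornithine decarboxylase (0.0187), Fndc10 (0.0353), Cpne8, a copine (0.0378), and Phactr1 (0.0379). They fell by 0.45, 0.48, 0.51 and 0.42 (adjusted p from 0.00379 to 0.0107). The falls of the genes nearest to Crhbp and to Crhr1 likewise follow from their choice. Distances are smaller for members that changed less, so they are not compared between members.

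Nearest to Crhr2 were Rnf19b (0.227), Usp46 (0.249), Tmem159 (0.256) and Col6a1, a collagen chain (0.264), of which none passed. Each was highest in right 1038 among the 5 bulb libraries. Col6a1 stood at 416 CPM there and at 103 to 174 CPM in the other 4, a likeness that the choice of the nearest profiles fixes.

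**Figure D4:**
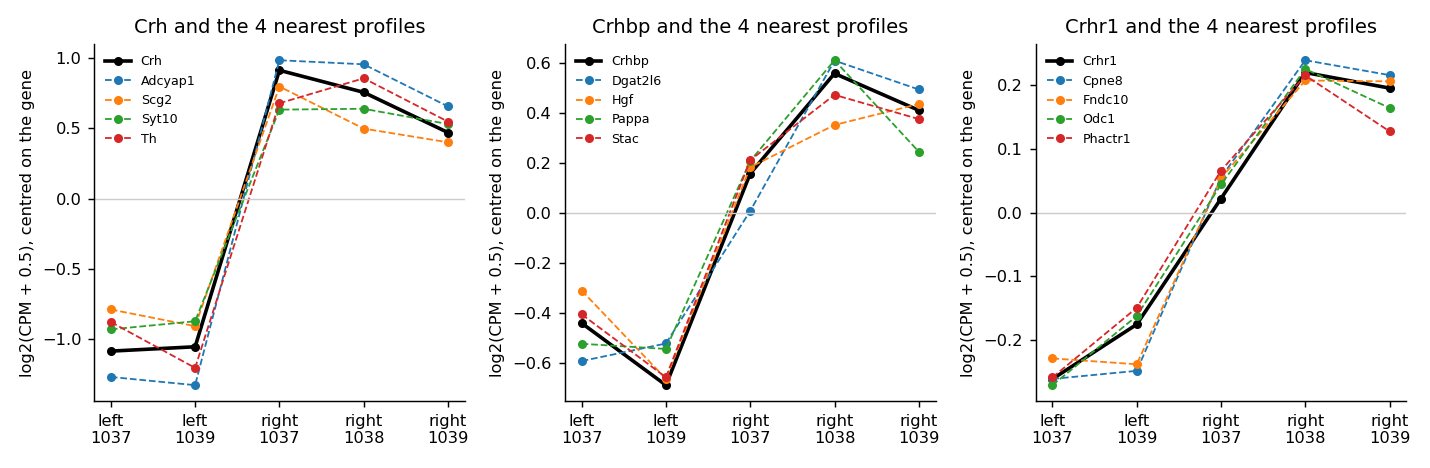
Log2(CPM + 0.5), centred on each gene's own mean, of Crh, Crhbp and Crhr1 (black) and of the 4 genes with the nearest profile (dashed), in the 5 bulb libraries; the libraries have no order and lines only join the points of a gene. The y axes differ, since Crh spans a wider range than Crhr1. Each gene is below 0 in both left libraries and above 0 in the 3 right libraries, which for the dashed genes follows from their choice as nearest to the member over these libraries.

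The machinery that makes and releases peptides such as CRH was lower in part. Of 12 genes of peptide processing and release 7 fell and 0 rose, with a median log2 fold change of -0.25 against 0.005 over all genes tested. For this and the lists that follow, 6.46% of all genes tested were called lower and 3.16% higher. No list was tested as a set. Pcsk1, a prohormone convertase, stood at 25.3 and 23.0 CPM on the left and at 71.3, 49.8 and 50.6 CPM on the right, and fell by 1.33 (SE 0.16, adjusted p = 0.00148). Chgb, chromogranin B, fell by 0.59 (SE 0.06, adjusted p = 0.000776), and Scg2 has been given above. Scg5, a chaperone of the convertase PCSK2, fell by 0.30, a call lost on leaving out left 1037, right 1037 or right 1038, with adjusted p up to 0.0780. Pam, which amidates peptides such as CRH at their end, had -0.26 (SE 0.08, adjusted p = 0.0698). The number called was 3 without right 1038, 4 without left 1037 or right 1037, and 3 when scaled by library total only or by DESeq2 with the mouse as a block.

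Of 23 genes of stimulatory G protein and cyclic AMP signalling, the kind of path that CRHR1 uses, 6 fell and 0 rose, and the median was -0.18. The list is not particular to CRHR1, and its members Adcy3 and Gnal are also in the list of sensory neuron axons below. Pde1c, a phosphodiesterase, fell by 0.60 (SE 0.08, adjusted p = 0.00239). The adenylyl cyclases Adcy8 and Adcy1 fell by 0.43 (adjusted p = 0.00643) and 0.37 (adjusted p = 0.00694). Adcy3, the cyclase of sensory neurons, fell by 0.41, a call lost on leaving out left 1039, right 1037 or right 1038, with adjusted p up to 0.156. Gnas, the G protein subunit itself, had 0.03 (SE 0.06, adjusted p = 0.814). Adcy1 turned to 2.12 with all 6 libraries. The number called was 3 without right 1037 or right 1038 and when scaled by library total only, and 2 by DESeq2 with the block.

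Among 13 genes that regulate such receptors 3 fell and 2 rose (median -0.02, and 0.063 when scaled by library total only). Grk3, a receptor kinase that acts on CRHR1, had 172 ± 4.84 CPM in left libraries (SD, n = 2) against 128 ± 11.1 CPM in right libraries (SD, n = 3), and rose by 0.35 (SE 0.08, adjusted p = 0.0212). Leaving out left 1037, right 1038 or right 1039 ended its call, with adjusted p up to 0.0711. Arrb2, a beta-arrestin, rose by 0.37, a call that ended without right 1038 (adjusted p = 0.0559). Rgs4, a regulator of G protein signalling, fell by 0.49 (SE 0.08, adjusted p = 0.00460). Dlg1, a scaffold, fell by 0.22, a call that ended without any 1 of the 5 libraries (adjusted p up to 0.110). The number called was 1 to 3 in the leave-outs and 1 by DESeq2 with the block.

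Of 13 genes of CREB and of factors that act on the Crh gene 2 fell and 0 rose (median 0.07), beside 6.46% and 3.16% of all genes tested. Fosb fell by 0.95 (SE 0.12, adjusted p = 0.00176). Sik1, a kinase that restrains the CREB coactivators, fell by 0.55, a call lost on leaving out left 1039, right 1037 or right 1039, with adjusted p up to 0.133. Crem had -0.56 (SE 0.17, adjusted p = 0.0723) and Fos -0.62 (SE 0.19, adjusted p = 0.0693). Creb1 itself had 0.06 (SE 0.07, adjusted p = 0.655), and Nr3c1, the glucocorticoid receptor, had 0.07 (SE 0.09, adjusted p = 0.693). Blocked by mouse, edgeR called 5 of the list and DESeq2 4, and without right 1037 or right 1039 the number was 1. Of 14 genes of the stress axis and of corticosteroid action 9 were tested and edgeR called 0, with a median of 0.07, while 1 was called with the block by edgeR and by DESeq2 and 1 without right 1038.

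**Figure D5:**
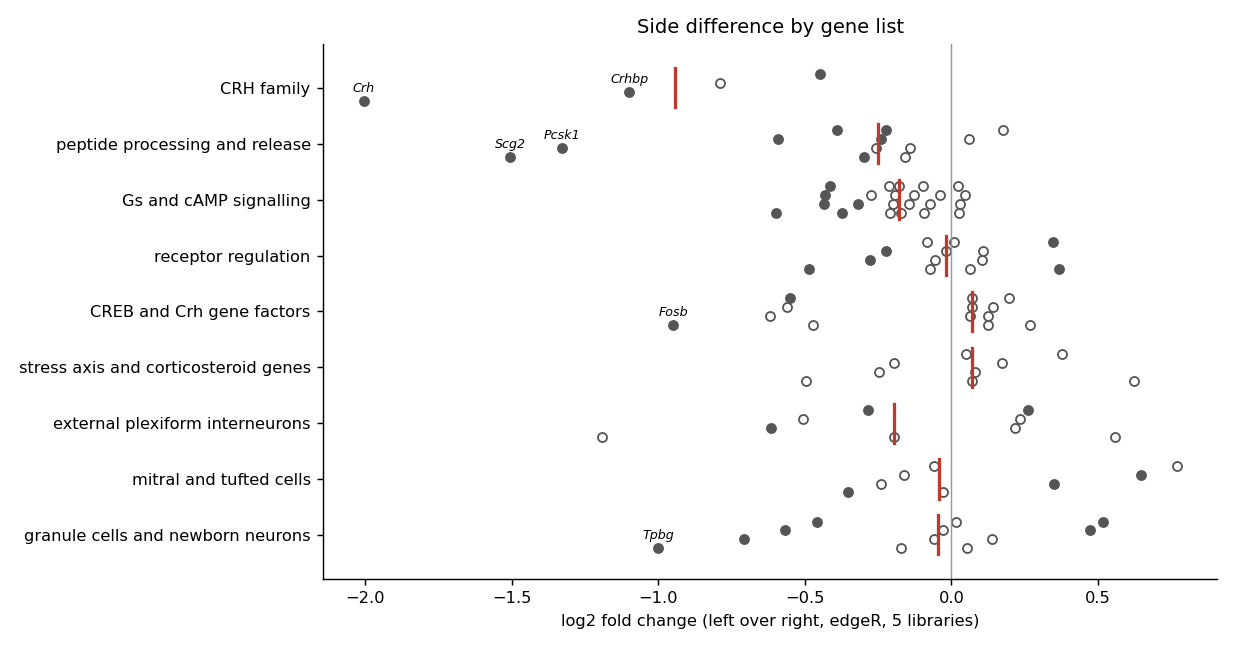
Log2 fold change of left over right in the 5 bulb libraries for the tested genes of 9 lists, one point per gene; filled points passed an adjusted p of 0.05 and the red bar is the list's median. Called genes with a change beyond 0.9 are named. Crh is the leftmost point, at -2.01, and the lists of peptide processing and of cyclic AMP signalling have filled points on the negative side only.

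Markers of the cells that could carry the family were read beside it, again against 6.46% lower and 3.16% higher over all genes tested. Of 9 genes listed for interneurons of the external plexiform layer 2 fell and 1 rose. The list is not confined to these cells, and Calb1 is also in the cerebellar list below. Its median of -0.20 changed sign without left 1037 (0.073) or right 1039 (0.055). The potassium channel Kcnc2 fell by 0.61 (SE 0.07, adjusted p = 0.00131). Kcnc1 fell by 0.29 and Calb2, calretinin, rose by 0.26, calls that each ended in leave-outs of left 1039, right 1037 or right 1038, and for Kcnc1 also right 1039 (adjusted p up to 0.140 and 0.121). Pvalb, parvalbumin, which many CRH cells of that layer contain, stood at 2.53 and 1.33 CPM on the left and 3.01, 4.97 and 4.57 CPM on the right, with -1.19 (SE 0.34, adjusted p = 0.0571). Vip had -0.51 (SE 0.14, adjusted p = 0.0519). The summed level of the list was 1143 to 1179 CPM on the left and 1069 to 1101 CPM on the right, most of it from genes other than Pvalb and Vip. The sum is therefore not a level of these interneurons. The part of these cells in the fall of Crh was not tested. The number called was 1 without right 1037 or right 1038 and 1 by DESeq2 with the block, and 5 without a filter or by DESeq2.

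Of 12 genes of granule cells and newborn neurons 4 fell and 2 rose (median -0.04). Gad2 and Gad1, enzymes of GABA synthesis, fell by 0.71 (adjusted p = 0.000435) and 0.57 (adjusted p = 0.00237), and Tpbg fell by 1.0 (adjusted p = 0.00164). Sox11, a factor of young neurons, rose by 0.52 (adjusted p = 0.00549), and had -0.019 with all 6 libraries. Of 8 genes of mitral and tufted cells 1 fell and 2 rose (median -0.04). Tbx21 rose by 0.65 (adjusted p = 0.00580), while Reln rose by 0.35 and Slc17a6 fell by 0.35, calls that ended in 4 and 5 of the 5 leave-outs (adjusted p up to 0.209 and 0.143).

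RNA of sensory neuron axons was lower, as the list of 7 genes shows, of which 5 fell and 0 rose (median -1.52). Its summed level was 126 to 188 CPM on the left and 372 to 457 CPM on the right. Omp, the olfactory marker protein, was unequal between left 1037 (35.1 CPM) and left 1039 (8.43 CPM). Crh had 57 counts in both, and a link between Crh and the RNA of these axons was not tested. Omp and S100a5 fell by 2.55 (adjusted p = 0.00441) and 5.15 (adjusted p = 4.79e-05), and Stoml3 and Gng13 by 1.97 and 1.52 (adjusted p = 0.00889 and 0.0137). Leaving out right 1037 ended the call of Gng13 (adjusted p = 0.0553), whose value was 0.74 with all 6 libraries. The number called was 3 without right 1037 and 2 by DESeq2 with the block.

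Other tissue that could bring in family members was read the same way. Of 8 hypothalamic genes 2 were at 0 in all 5 bulb libraries. Only 1, Trh, had enough counts to be tested, and it was called lower (-1.30). The list summed to 42.4 to 53.1 CPM on the left and to 94.8 to 136 CPM on the right, nearly all of it Trh. Hcrt, Pmch, Agrp, Otp, Sim1, Avp and Oxt were each at 0.205 CPM or less. Choroid plexus, which carries Crhr2, is marked by Ttr, and Ttr stood at 171 CPM in left 1037 and at 5.71 to 7.44 CPM in the other 4. Crhr2 was lowest in left 1037, at 15 counts. Its Wilson interval there, 0.589 to 1.60 CPM, met those of left 1039, right 1037 and right 1039. How Crhr2 relates to Ttr was not tested. Of 6 genes of that list 5 were tested and 1, Ttr, was called (3.65, adjusted p = 0.0332). Without left 1037 the log2 fold change of Ttr, then also the list's median, was 0.00042 (adjusted p = 0.999), and the call also ended without any 1 of the right libraries. Of 8 endothelial and mural, 5 oligodendrocyte and 6 cortical genes edgeR called 0, with medians of -0.18, -0.11 and 0.08. Of 8 astrocyte and microglia genes 2 rose and 0 fell, Gfap by 1.05 (adjusted p = 0.000606) and Aqp4 by 0.30 (adjusted p = 0.0101). The median of that list was 0.24, and its summed level was 1933 to 1946 CPM on the left and 1403 to 1582 CPM on the right. Of 8 cerebellar genes 6 were tested and 3 rose, Neurod1 by 1.48 (adjusted p = 0.000224), Zic1 by 0.28 and Zic2 by 0.36, genes that the bulb also expresses. The median was 0.42, and all 6 tested cerebellar genes had a higher CPM in both left libraries than in every right library. That order was seen for 33.2% of all genes tested, on this scale of library totals. The part of these lists in the values of the CRH system was not tested. Leaving out right 1037 ended the calls of Zic1 and Zic2, and leaving out left 1037 or right 1038 that of Zic2, with adjusted p reaching 0.0525 and 0.0827.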

How the data were processed

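The members and lists were chosen with earlier results of these data known. Per the file headers, the deposited table holds whole-number read counts for each gene and library, RPKM values, and a length. The authors' RPKM use a length that lay within 1 base of the genomic span for 78.34% of genes and were not used. The build GRCm38 and, with no role stated, HTSeq 0.6.1p2, TopHat2, DESeq 1.18.0 and cutadapt 1.2.1 are named, per the submitters' processing notes. Strand use in counting was not stated, and no member overlaps another annotated gene (GENCODE). No column lacked a sample.

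Genes were tested with edgeR 4.0.16 in R 4.3.3 (glmQLFit, glmQLFTest, TMM scaling, filterByExpr, side as the only term), with Benjamini-Hochberg adjustment over all genes tested and calls at 0.05. The SE is the absolute log2 fold change over the square root of F. Two-sided tests were used throughout. Alternatives were other scalings and filters, DESeq2 1.42.0, limma-voom (limma 3.58.1), the mouse as a block, leave-outs and all 6 libraries. Both bulbs of a mouse carry its number in the labels, so they are paired. Deviations from the group means correlated at 0.230 in mouse 1037 and 0.236 in mouse 1039. With 2 left libraries their deviations are exact opposites, so these are not independent values, and the pairing rests on the labels. The main test was planned without the block. Exon lengths are from the GENCODE annotation of GRCm38. Named genes were the family, up to 4 called genes with the smallest p per list and the 4 nearest profiles per tested member. Pvalb, Vip, Crem, Fos, Creb1, Nr3c1, Pam, Gnas, Dlx1 and Cdhr1 were added after their values were seen.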

Additional observations from a re-analysis of the deposited data

Results flagged for a closer look

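Crhr1 in the library labelled left 1038, which the comparison of sides does not use, stood at 122 CPM (95% Wilson interval 116 to 128 CPM). This is above the highest level of the open side, 54.9 CPM in right 1038. In the same library Ucn2, at 1.10 CPM, was also above each right library, whose highest level was 0.385 CPM, and its interval of 0.676 to 1.78 CPM met those of right 1037 (up to 0.840 CPM) and right 1038 (up to 0.681 CPM) but not that of right 1039 (up to 0.602 CPM). Crh, Crhbp and Crhr2 were below each right library there.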

How the results depend on the processing

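Of 14412 genes edgeR called 1387, 456 higher and 931 lower, and scaled by library total only 975 higher and 589 lower. With mice as a replicate block DESeq2 called 432 and edgeR 1553, and the leave-outs called 660 to 1124. With all 6 libraries edgeR called 0 (1196 at an unadjusted p under 0.05), also with the block, limma-voom 0, DESeq2 194, and DESeq2 with the block 26. Leaving out single libraries there gave 0 to 1387, the latter without left 1038. Of the CRH system 3 genes were called in the 5 libraries, 1 by DESeq2 with the block (Crh; Crhr1 had -0.41), and 0 with all 6 under edgeR, edgeR with the block and DESeq2. In these 3 fits Crh had -2.56, -3.01 and -2.57, Crhbp -1.67, -2.20 and -1.68, and Crhr1 0.35, 0.11 and 0.35. Leaving out single libraries of the 6, Crhr1 ran from -0.45 (without left 1038) to 0.636. In the same order Adcy1 had 2.12, 0.76 and 2.12, Kcnc1 0.52, 0.27 and 0.52, Fndc10 0.37, 0.10 and 0.37, Rnf19b 1.36, 0.65 and 1.37, Pvalb 5.24, 0.93 and 5.25, Sox11 -0.019, -0.59 and -0.018, Creb1 -0.0036, -0.0038 and -0.0017, and Gnas -0.0031, -0.0036 and -0.0015. Under edgeR and DESeq2 without the block Gng13 had 0.74 and 0.74, Tmem159 0.049 and 0.051, and Stac 0.11 and 0.12, and with the block Tbx21 had -0.82. Over the leave-outs in the 5 libraries Nr3c1 ran from -0.033 (without left 1037) to 0.179. With the longest transcript Crhr2 was 0.518 CPM per kb on the left and 0.847 on the right. The causes were not tested. With the block edgeR changed no call of Crh, Crhbp, Crhr1 or Crhr2. Counts under 20 per library, as in Ucn2, limit what depth can show.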

Other observations

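Among the other genes of the lists, Trh was, like Crh, lower on the plugged side, and a link between them was not tested. Trh encodes thyrotropin-releasing hormone, another releasing hormone known from the hypothalamus. It stood at 52.9 and 42.4 CPM in left 1037 and 1039 and at 102, 136 and 94.3 CPM in right 1037, 1038 and 1039, and fell by 1.30 on the log2 scale (SE 0.15, adjusted p = 0.00142). The call held in each of the 5 leave-outs (log2 values from -1.46 to -1.12). In the library labelled left 1038 it stood at 0.137 CPM. Trh was the member of the hypothalamic list with enough counts to be tested.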
